A study of Mus musculus with 21 samples.

Results

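Type I interferon-stimulated genes, 49 in all, were followed in organoids grown from primary mouse mammary cells of 2 genotypes, through activation of the oncogene neuT. The genes came from a list of known interferon-stimulated genes, not from a measured value, but the list was chosen with earlier results of these data known. They were matched to the deposited gene IDs through the symbols of GENCODE vM21. All 49 matched 1 ID each among the 55536 IDs of the count table, of which 36178 had a count in any library, and all 49 passed the filter on low counts. The organoids were wild type (WT) or homozygous for the ATLD1 allele of Mre11 (Mre11 ATLD1/ATLD1, called ATLD), a hypomorphic allele that bears the name of a human disorder resembling ataxia-telangiectasia. Mre11 is the nuclease subunit of the complex that senses broken DNA ends. Both genotypes were taken at 3 times, day 0, day 14 and day 28 after activation of neuT, the mutant rat Erbb2 (Neu) receptor that drives mammary tumours, with 3 libraries in each of 6 groups. Day 14 and day 28 of both genotypes share neuT and the time in culture, which cannot be told apart, since every library of those days had neuT activated. The labels name no strain, age or number of animals, no promoter or switch for neuT, and no separate origin for the replicates, so a p-value here measures the spread between libraries, which may be technical.

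Type I interferons bind a receptor of Ifnar1 and Ifnar2 chains, whose kinases Jak1 and Tyk2 phosphorylate Stat proteins such as Stat2. With Irf9 these form the factor ISGF3, which enters the nucleus and binds the interferon-stimulated response element in the promoters of interferon-stimulated genes. Their products block viral RNA and particles, tag proteins with Isg15, and feed back on the receptor. The same genes can be induced in epithelial and tumour cells without a virus, when DNA or RNA of the cell itself reaches the cytosolic sensors.

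The response element can be read in the promoters of the genes. A RefSeq promoter on GRCm38.p6, from 250 bases before to 50 bases after the gene start, was at hand for 39 of the 49 genes. The core of the element, GAAANNGAAA on either strand, was present for 19 of those 39 (48.7%), beside 3.99% of the 27025 genes with a promoter of this length. The gamma-activated site, the palindrome TTCNNNGAA to which Stat dimers bind, was present for 10 of 39 (25.6%) beside 9.55% of all genes. The promoters of other genes on which the results turn, Irf9, Oasl1, Oasl2, Epsti1, Cmpk2 and Lgals3bp among them, held no core. The windows shown here are a choice from the genes that hold the core. Each runs 5′ to 3′ on the strand of its gene, with the response element core in capitals (TTTCNNTTTC where the core lies on the opposite strand), and overlapping matches are capitalised as 1 run.
Isg15 (chr4:156200860-156200911, minus strand): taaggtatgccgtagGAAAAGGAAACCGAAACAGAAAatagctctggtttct
Ifit1 (chr19:34640770-34640828, plus strand): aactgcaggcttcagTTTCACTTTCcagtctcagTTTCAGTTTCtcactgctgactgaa
Ifit3 (chr19:34583358-34583431, plus strand): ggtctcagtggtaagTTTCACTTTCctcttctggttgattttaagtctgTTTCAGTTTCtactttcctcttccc
Ifit3b (chr19:34607754-34607827, plus strand): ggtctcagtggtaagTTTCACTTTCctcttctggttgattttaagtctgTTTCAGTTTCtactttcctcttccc
Oas1a (chr5:120907526-120907560, minus strand): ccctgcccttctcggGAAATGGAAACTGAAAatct
Bst2 (chr8:71537572-71537617, minus strand): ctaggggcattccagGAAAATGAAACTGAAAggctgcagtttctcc
Igtp (chr11:58199507-58199546, plus strand): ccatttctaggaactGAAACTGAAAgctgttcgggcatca
Rsad2 (chr12:26456548-26456587, minus strand): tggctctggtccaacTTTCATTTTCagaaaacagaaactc
Isg15 holds 3 overlapping cores, and Ifit1, Oas1a and Bst2 hold 2 each. The Ifit3 and Ifit3b windows are the same 74 bases. By role, the core was in 5 of 5 promoters of the interferon-inducible GTPases, in 3 of 4 of the IFIT family and in 0 of 2 of the PARP and Dtx3l group. A match is a run of letters and not a shown binding site. No promoter was used here for Usp18, Oas2, Mx1, Mx2, Rtp4, Parp9, Parp14, Iigp1, Ifi27 and Ifi27l2a.

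The libraries held 30905703 to 50879106 counts in the 9 original WT libraries and 46331204 to 51757203 in the 9 ATLD libraries. Per the labels, the first WT replicate at each day went through a second sequencing alongside ATLD, and these 3 resequenced runs held 46532851 to 48887808 counts. Genotype and sequencing batch are otherwise the same split. Mre11a, the mouse Mre11 gene, was at 43.3 to 58.5 CPM in the original WT, at 42.2 to 53.3 CPM in the resequenced and at 14.05 to 17.04 CPM in the ATLD libraries, where CPM is the count scaled by TMM to a library of 1e+06 counts. Markers of mammary epithelium were high in every library, with Krt8 at 167 CPM or more and Krt5 at 740 CPM or more. The summed level of 5 luminal markers was 1127 to 2620 CPM in original WT and 3790 to 5309 CPM in ATLD, and that of 5 basal markers was 2307 to 10645 CPM and 1925 to 4165 CPM. The summed level of 11 myeloid markers was 7.17 to 11.97 CPM in the original WT, 2.68 to 3.09 CPM in the resequenced and 3.15 to 3.98 CPM in the ATLD libraries. Its marker Lyz2 was at 4.25 to 9.06 CPM in the original WT, at 0.0204 to 0.0401 CPM in the resequenced and at 0 to 0.0675 CPM in the ATLD libraries, and so differed between runs of the same WT cultures. The lung marker Sftpc did so too, at 4.22 to 10.6, 0.181 to 0.516 and 0 to 0.149 CPM in the same order, while Sftpd of the same list was at 0.211 to 2.23, 0.0408 to 2.201 and 6.28 to 16.9 CPM. Siglech, which marks plasmacytoid dendritic cells, was at 0 in all but 1 library. The slope of the level against the GC content of the gene was taken relative to the mean of all WT libraries, resequenced runs included. In WT day 14 replicates 1 and 3 and WT day 28 replicate 2 it was -0.46, -0.45 and -0.35 log2 units per 10 percentage points. In the other 6 original WT libraries the slope was -0.20 to 0.24, and in the resequenced runs 0.19 to 0.32.

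All 49 genes had counts in every library, those of day 0 included. The mean level was highest in ATLD day 14 for 34 of the 49 genes and lowest in WT day 0 for 29 and in WT day 14 for 15. The summed level of the 49 genes was 1370 to 1614 CPM in the WT libraries of day 0, 1993 to 2352 CPM at day 14 and 2036 to 2476 CPM at day 28. ATLD libraries reached 2678 to 3160 CPM at day 0, 3813 to 4871 CPM at day 14 and 3144 to 3794 CPM at day 28. The lowest ATLD sum thus lay above the highest original WT sum. For 21 genes, every ATLD library was above every WT library, resequenced runs included, and for 0 every ATLD library was below. These counts, and those of the highest and lowest groups, were not made over all genes, so they do not set the list apart. The widest ratios between the means of 2 groups were 82.5-fold for Ifi27l2a and 27.6-fold for Oasl1, and the narrowest was 1.30-fold for Irf1. Per kilobase of gene length, the scale on which genes can be compared, the WT day 0 levels were led by Ifitm3 at 303, Ifi27 at 50.995 and Trim25 at 19.7 CPM per kb. In ATLD day 14 the leading levels per length were those of Ifitm3 at 818, Isg15 at 267 and Ifi27 at 221 CPM per kb.

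**Figure D1:**
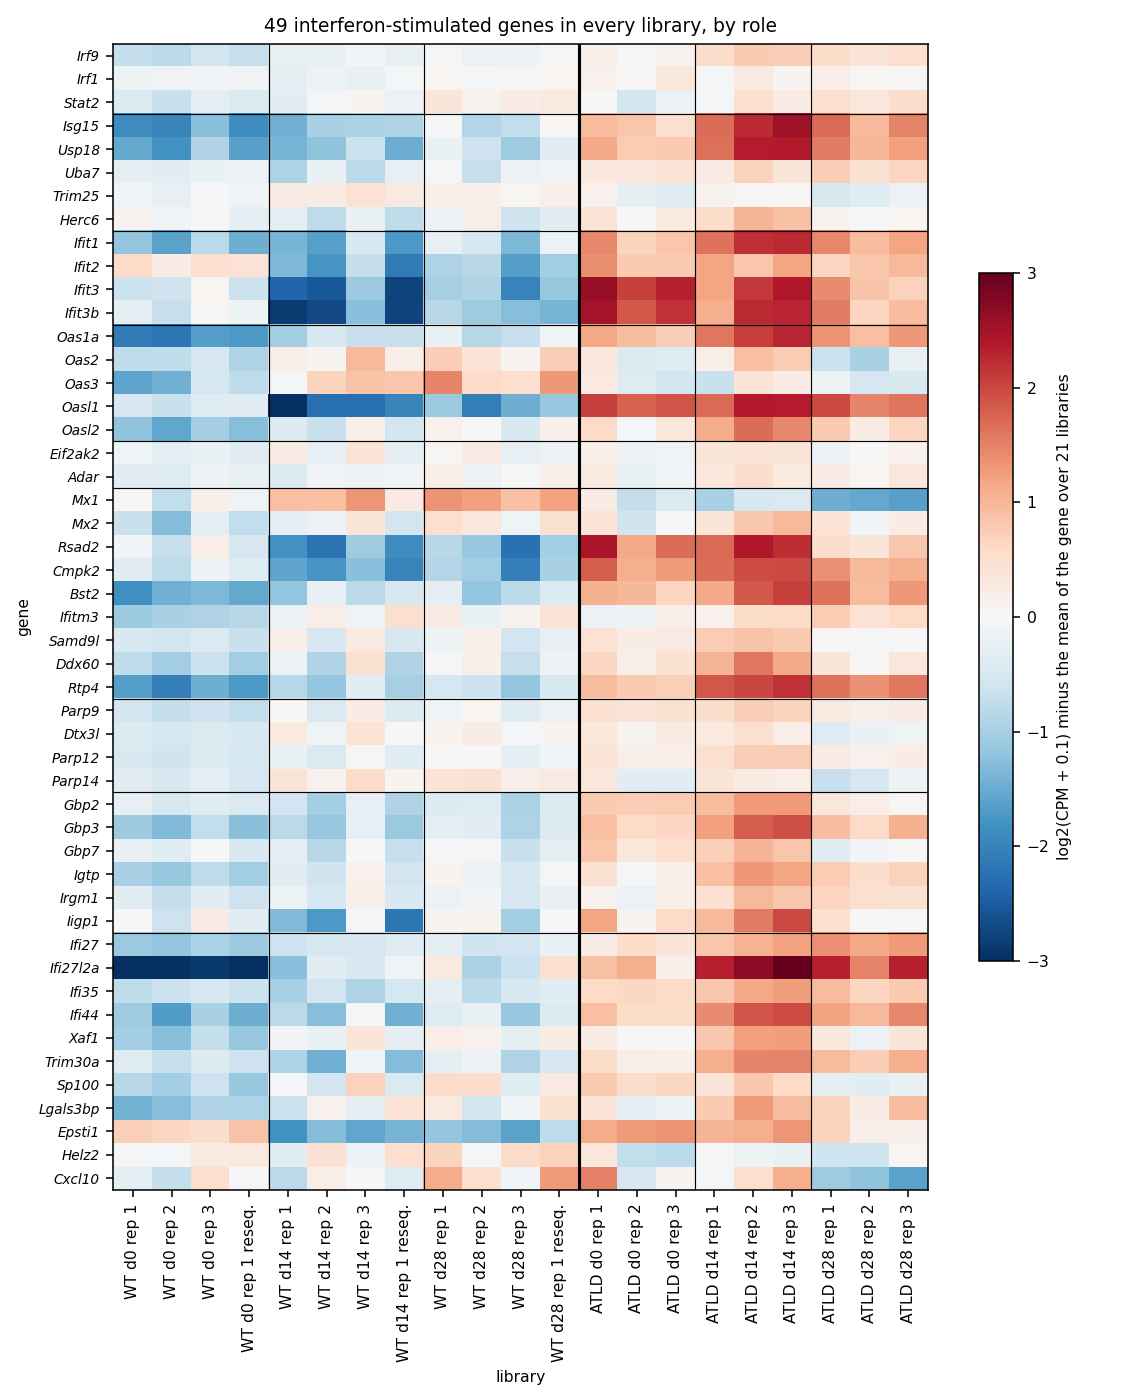
Level of each of the 49 genes in each of the 21 libraries, as log2(CPM + 0.1) minus the mean of the gene, with genes in rows grouped by role and libraries in columns. Colours stop at 3 units in each direction; blue is low, red is high, and the thick line parts WT (left) from ATLD (right), where ATLD day 14 is the highest group for 34 genes.

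In WT organoids most of the genes that changed were higher at day 14 and at day 28 than at day 0, while a smaller set, Epsti1, Oasl1 and Ifit2 among them, fell. At day 14, 20 of the 49 genes were higher and 7 lower than at day 0, by edgeR's quasi-likelihood test at a Benjamini-Hochberg adjusted p under 0.05 over all 18684 genes tested. Of all genes tested, 15.2% were called higher and 15.1% lower, 30.3% in either direction. The share called higher, 40.8% of the 49, was above that of all genes, and the share called lower, 14.3%, was close to it. The median log2 change was 0.36 for the 49 genes and 0.01 for all genes. At day 28, 22 were higher and 5 lower (all genes: 12.3% and 12.4%, 24.7% in either direction), with a median of 0.54 beside 0.02. Both comparisons use the same day 0 libraries. Between day 28 and day 14 edgeR called 0 of 49 (all genes: 0.905% in either direction, 0.53% higher and 0.375% lower), 4 had an unadjusted p under 0.05, and the log2 change was above 0 for 37 of 49 with a median of 0.17. DESeq2 called 1, the fit without a filter 1, and leaving out WT day 14 replicate 2 gave 3 and leaving out WT day 28 replicate 2 gave 1. Without the 3 WT libraries with a GC trend, WT day 14 is left with replicate 2 alone, which has no spread of its own. Whether the calls of day 14 hold without these libraries can therefore not be judged, and the calls kept or lost in that fit are not counted here. In it the log2 change of Samd9l at day 14 turned from 0.51 to -0.04. With an offset for GC content, which keeps these libraries in the fit, all 27 calls of day 14 were kept. At day 28, 26 of 27 were kept without them. The summed luminal markers of the WT libraries were 2218 to 2620 CPM at day 0 and 1127 to 1666 CPM at day 14. The 5 basal markers summed to 2307 to 2929 CPM at day 0 and 4842 to 10645 CPM at day 14, and 5 of 5 were called higher at day 14 and 4 of 5 at day 28. The part of either list in these changes was not tested, and in bulk RNA fewer cells of a type and less RNA per cell cannot be told apart.

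In ATLD organoids the genes called at day 14 were all higher than at day 0, and those called between day 14 and day 28 had all fallen. In these comparisons 30 and 27 of the 49 genes were not called, and Ifi27 and Ifitm3 had their highest mean at ATLD day 28. At day 14, 19 were higher and 0 lower than at day 0 (all genes: 5.18% higher, 6.49% lower, 11.7% in either direction), with a median log2 change of 0.49 beside -0.03 for all genes. From day 14 to day 28, 22 fell and 0 rose (all genes: 9.05% lower, 8.25% higher, 17.3% in either direction), with a median of -0.57 beside -0.00463. At day 28 against day 0, 7 were higher and 10 lower (all genes: 14.1%, 15.7% and 29.8% in either direction), with a median of -0.03 beside -0.02. The 34.7% of the 49 genes called in that comparison were close to the share of all genes. The count of calls at day 14 was 11 without ATLD day 0 replicate 2 and 12 without ATLD day 14 replicate 2, and for day 28 against day 0 it was 11 without ATLD day 0 replicate 1. For day 28 against day 14 it was 12 without ATLD day 14 replicate 2 or replicate 3 and 11 without ATLD day 28 replicate 2. Of the 5 basal markers, 4 were called lower at day 28 than at day 0, and their part in these changes was not tested.

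ATLD organoids were already above WT at day 0, before neuT, and the distance was widest at day 14. At day 0, 37 of the 49 genes were higher and 0 lower in ATLD, in a fit over the 21 libraries that carried a term for the batch (all 18844 genes tested: 26.1% higher, 29.5% lower, 55.6% in either direction). The median log2 difference, ATLD minus WT, was 1.03 for the 49 genes and -0.04 for all genes. At day 14, 38 were higher and 1 lower (all genes: 30.1%, 35% and 65.1% in either direction), with a median of 1.45 beside -0.07. At day 28, 27 were higher and 7 lower (all genes: 29.3%, 34.9% and 64.2% in either direction), with a median of 0.61 beside -0.05. Within the second batch alone, where each WT day is 1 resequenced run, 0 of the 37, 39 and 34 called differences turned direction at day 0, day 14 and day 28. A lone WT run has no spread of its own in that fit, which takes the spread from the ATLD libraries and assumes that WT varies alike. Whether the calls hold can therefore not be judged from it, and those kept are not counted here. The calls not kept there at day 0 were those of Herc6, Ifit2, Eif2ak2, Mx2 and Parp14, and at the later days those of Lgals3bp (day 14) and of Trim25, Oasl2 and Parp12 (day 28). Of 5 luminal markers 4 were called higher in ATLD at day 0 and 5 at the later days, and of 5 basal markers 1 (Trp63) was called lower at day 0 and 5 at the later days; their part in these differences was not tested. Of 11 myeloid markers 5 passed the filter; 0 were called at day 0, 2 were called higher in ATLD at day 14 (Mrc1 and Mpeg1) and 2 at day 28 (Mrc1 and Csf1r), 0 were called lower, and their part in these differences was not tested. Mrc1 was at 0.021 to 0.167 CPM in the original WT, at 0 to 0.198 CPM in the resequenced and at 0.215 to 0.788 CPM in the ATLD libraries.

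**Figure D2:**
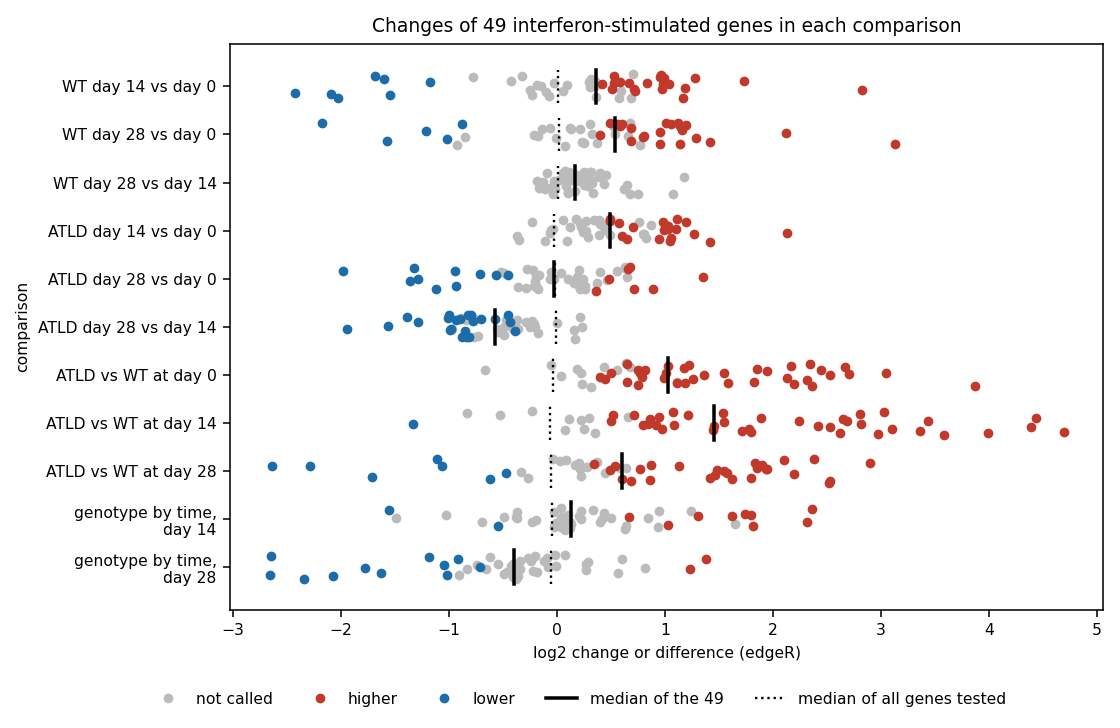
Log2 change or difference of each of the 49 genes (points, x axis) in each of the 11 comparisons (y axis); red points were called higher, blue lower and grey not called by edgeR, and the thick bar marks the median of the 49 and the dotted line that of all genes tested. The points of WT day 28 against day 14 are all grey, those of ATLD day 28 against day 14 hold 22 blue and 0 red, and those of ATLD against WT at day 14 reach 4.69 (Ifit3b).

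Among the transducers and factors of the pathway, Irf9 rose in both genotypes and was higher in ATLD, Stat2 rose by day 28 in both, and Irf1 was not called in any comparison. Irf9 (ENSMUSG00000002325, chromosome 14, 55603571 to 55610030, plus strand) is the DNA-binding subunit of ISGF3. WT libraries held Irf9 at 62.8, 58.7 and 70.2 CPM at day 0, at 89.5, 88.2 and 98.4 CPM at day 14 and at 102, 92.2 and 93.5 CPM at day 28. ATLD libraries held Irf9 at 118, 107 and 112 CPM at day 0, at 151, 179 and 174 CPM at day 14 and at 151, 135 and 148 CPM at day 28. Every later library of a genotype was above its day 0 libraries, and every ATLD library was above every WT library. The log2 change at day 14 was 0.53 ± 0.10, adjusted p = 0.000443, in WT and 0.58 ± 0.10, adjusted p = 0.000569, in ATLD, and the ATLD minus WT difference at day 0 was 0.79 ± 0.10, adjusted p = 6.45e-06. Stat2 (ENSMUSG00000040033, chromosome 10, 128270559 to 128292849, plus strand) is the subunit that carries the activation domain of ISGF3. WT libraries held Stat2 at 30.1, 25.1 and 33.03 CPM at day 0, at 32.4, 38.6 and 42.4 CPM at day 14 and at 51.5, 43.3 and 46.9 CPM at day 28. ATLD libraries held Stat2 at 40.5, 27.2 and 35.2 CPM at day 0, at 38.9, 55.6 and 47.3 CPM at day 14 and at 56.1, 50.4 and 57.9 CPM at day 28. The day 28 libraries lay above the day 0 libraries in both genotypes, and the genotypes overlapped at every day. Stat2 was called at day 28, with a log2 change of 0.68 ± 0.16, adjusted p = 0.00372, in WT and 0.68 ± 0.16, adjusted p = 0.00403, in ATLD. Irf1 (ENSMUSG00000018899, chromosome 11, 53770014 to 53778374, plus strand) is a factor that binds the same element without Stat proteins. WT libraries held Irf1 at 44.5, 46.04 and 47.4 CPM at day 0, at 41.2, 44.8 and 42.5 CPM at day 14 and at 51.6, 47.7 and 50.9 CPM at day 28. ATLD libraries held Irf1 at 54.2, 51.3 and 61.8 CPM at day 0, at 47.7, 59.5 and 53.1 CPM at day 14 and at 57.1, 52.2 and 51.3 CPM at day 28. ATLD lay above WT at day 0 and day 14 and overlapped it at day 28, and its ATLD minus WT difference was 0.23 ± 0.10, adjusted p = 0.0725, at day 0.

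Isg15 and its conjugation system were led by Isg15 itself and by Usp18. Isg15 (ENSMUSG00000035692, chromosome 4, 156199424 to 156200818, minus strand) is a ubiquitin-like protein that is attached to other proteins. WT libraries held Isg15 at 11.8, 11.2 and 18.4 CPM at day 0, at 16.2, 22.6 and 23.04 CPM at day 14 and at 44.5, 23.9 and 26.7 CPM at day 28. ATLD libraries held Isg15 at 85.7, 78.3 and 62.2 CPM at day 0, at 141, 208 and 257 CPM at day 14 and at 143, 87.2 and 125 CPM at day 28. Every ATLD library was above every WT library, and the ATLD libraries of day 14 overlapped those of day 28 only through replicate 1 of each. The ATLD minus WT difference was 2.34 ± 0.32, adjusted p = 8.67e-06, at day 0 and 3.105 ± 0.32, adjusted p = 1.17e-07, at day 14. In WT the change was called at day 28 (1.19 ± 0.28, adjusted p = 0.00348), where replicate 1 was highest, and in ATLD at day 14 (1.42 ± 0.27, adjusted p = 0.00179). Usp18 (ENSMUSG00000030107, chromosome 6, 121245906 to 121270917, plus strand) removes Isg15 from proteins and dampens signalling at the receptor. WT libraries held Usp18 at 4.69, 3.82 and 7.26 CPM at day 0, at 5.17, 5.87 and 8.73 CPM at day 14 and at 11.9, 8.82 and 6.44 CPM at day 28. ATLD libraries held Usp18 at 30.02, 23.2 and 23.7 CPM at day 0, at 43.2, 70.6 and 71.4 CPM at day 14 and at 40.4, 27.3 and 32.001 CPM at day 28. WT days overlapped, while the ATLD libraries of day 14 were above all others. Usp18 rose in ATLD at day 14 (1.27 ± 0.27, adjusted p = 0.00406) and fell from day 14 to day 28 (-0.89 ± 0.27, adjusted p = 0.0295). Uba7, the enzyme that activates Isg15, was higher in ATLD at day 14 (0.79 ± 0.19) and day 28 (0.69 ± 0.19). Herc6, the mouse ligase for Isg15, rose in ATLD at day 14 (0.61 ± 0.19) and fell to day 28 (-0.79 ± 0.19). Trim25, a ubiquitin ligase of RNA sensing, was called higher in WT at day 14 (0.42 ± 0.12) and lower in ATLD at day 28 against day 14 (-0.39 ± 0.12).

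The IFIT family, whose proteins bind viral RNA and hold back its translation, split in WT and stood apart between genotypes. At each day, 4 of 4 members were higher in ATLD (all genes: 26.1%, 30.1% and 29.3% at day 0, day 14 and day 28). In WT at day 14, however, Ifit2, Ifit3 and Ifit3b fell (all genes: 15.1% lower) and Ifit1 was not called. Ifit1 (ENSMUSG00000034459, chromosome 19, 34640871 to 34650009, plus strand) binds RNA with an unmethylated cap. WT libraries held Ifit1 at 11.4, 8.53 and 14.98 CPM at day 0, at 9.801, 8.34 and 19.1 CPM at day 14 and at 21.9, 18.2 and 10.3 CPM at day 28. ATLD libraries held Ifit1 at 70.7, 41.7 and 46.5 CPM at day 0, at 80.3, 119 and 124 CPM at day 14 and at 70.6, 50.7 and 59.5 CPM at day 28. The WT days overlapped and every ATLD library was above every WT library. Its ATLD minus WT difference was 2.36 ± 0.39, adjusted p = 6.55e-05, at day 0 and 3.37 ± 0.41, adjusted p = 9.47e-07, at day 14, and it rose in ATLD at day 14 (1.03 ± 0.32, adjusted p = 0.0459). Ifit3 (ENSMUSG00000074896, chromosome 19, 34583531 to 34588731, plus strand) lies in the same gene cluster. WT libraries held Ifit3 at 2.38, 2.47 and 3.94 CPM at day 0, at 0.641, 0.565 and 1.704 CPM at day 14 and at 1.86, 1.97 and 0.865 CPM at day 28. ATLD libraries held Ifit3 at 23.4, 15.99 and 19.1 CPM at day 0, at 8.74, 16.7 and 20.3 CPM at day 14 and at 10.3, 6.88 and 6.16 CPM at day 28. WT day 0 was above WT day 14 and WT day 28, and ATLD day 0 was above ATLD day 28. The log2 change was -1.59 ± 0.43, adjusted p = 0.00843, in WT at day 14 and -1.32 ± 0.37, adjusted p = 0.0116, in ATLD at day 28, and the ATLD minus WT difference was 3.05 ± 0.45, adjusted p = 2.05e-05, at day 0, 4.44 ± 0.49 at day 14 and 2.53 ± 0.45 at day 28. Ifit3b had the largest difference of the 49 genes between genotypes at day 14 (4.69 ± 0.49, adjusted p = 1.62e-07), with 0.454 ± 0.372 CPM in WT and 9.09 ± 3.61 CPM in ATLD (mean ± SD, n = 3). Its difference was 2.66 ± 0.44 at day 0 and 2.52 ± 0.46 at day 28. Its change was -2.02 ± 0.46 in WT at day 14 and -1.11 ± 0.36 in ATLD at day 28. Of the 50-base windows of the longest Ifit3 transcript, 51.2% were also found in Ifit3b, so counts can be split between the 2 genes and their levels are uncertain one by one. Ifit2, which shares 0 such windows, went from 11.3 ± 1.45 CPM at WT day 0 to 3.504 ± 1.35 CPM at day 14 and 3.798 ± 1.09 CPM at day 28 (mean ± SD, n = 3), log2 changes of -1.68 ± 0.26 and -1.57 ± 0.26. In ATLD it was at 16.7 ± 4.37, 17.4 ± 2.32 and 14.6 ± 1.66 CPM at the same days (mean ± SD, n = 3).

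The OAS family makes oligoadenylates on double-stranded RNA, which activate the nuclease RNase L, and Oasl proteins are relatives without or with altered activity. In WT, Oas1a, Oas2, Oas3 and Oasl2 rose and Oasl1 fell at both days, while in ATLD Oas1a and Oasl2 rose at day 14. Oasl2 (ENSMUSG00000029561, chromosome 5, 114896936 to 114912234, plus strand) is a family member with a ubiquitin-like tail. WT libraries held Oasl2 at 32.7, 25.5 and 37.6 CPM at day 0, at 57.1, 48.1 and 85.5 CPM at day 14 and at 82.4, 76.9 and 55.5 CPM at day 28. ATLD libraries held Oasl2 at 114, 74.6 and 94.01 CPM at day 0, at 163, 241 and 206 CPM at day 14 and at 131, 88.1 and 118 CPM at day 28. The later WT days lay above WT day 0, and ATLD day 14 lay above both other ATLD days. Its change was 0.99 ± 0.24, adjusted p = 0.00362, in WT and 1.11 ± 0.23, adjusted p = 0.00362, in ATLD at day 14, and -0.85 ± 0.23 from ATLD day 14 to day 28. Oas1a went from 4.29 ± 0.892 CPM at WT day 0 to 10.5 ± 2.08 and 11.5 ± 2.801 CPM at day 14 and day 28 (mean ± SD, n = 3), log2 changes of 1.28 ± 0.23 and 1.42 ± 0.23. It was higher in ATLD by 2.702 ± 0.25, adjusted p = 1.06e-07, at day 0, though 57.6% of its transcript windows are shared with Oas1g and its count is uncertain. Oas3 rose in WT by 1.73 ± 0.39 at day 14 and 2.12 ± 0.39 at day 28, from 0.885 ± 0.426 to 2.99 ± 0.935 and 3.904 ± 1.604 CPM (mean ± SD, n = 3). Oas2 rose in WT by 1.17 ± 0.29 and 1.14 ± 0.29, and fell in ATLD from day 14 to day 28 (-1.28 ± 0.29). At day 28 both were lower in ATLD than in WT, with a difference of -1.71 ± 0.38 for Oas3 and -1.11 ± 0.31 for Oas2. Oasl1, which represses translation of Irf7, went the other way in WT. It was at 4.01 ± 0.429, 0.948 ± 0.282 and 1.97 ± 0.657 CPM at the WT days and at 21.7 ± 2.24, 26.1 ± 6.36 and 18.9 ± 3.56 CPM at the ATLD days (mean ± SD, n = 3). The WT changes were -2.09 ± 0.27 and -1.02 ± 0.25, and the ATLD minus WT difference was 4.39 ± 0.28, adjusted p = 1.67e-10, at day 14 and 2.89 ± 0.27, adjusted p = 3.35e-08, at day 28. At day 0 Oasl1 was higher in ATLD by 2.13 ± 0.27.

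The double-stranded RNA kinase Eif2ak2 (PKR) and the RNA editor Adar moved little. Eif2ak2 (ENSMUSG00000024079, chromosome 17, 78852564 to 78882573, minus strand) stops translation when it binds double-stranded RNA. WT libraries held Eif2ak2 at 82.1, 73.6 and 78.3 CPM at day 0, at 104, 76.3 and 120.2 CPM at day 14 and at 92.1, 107 and 76.05 CPM at day 28. ATLD libraries held Eif2ak2 at 100.2, 80.3 and 82.7 CPM at day 0, at 115, 117 and 116 CPM at day 14 and at 81.3, 90.4 and 98.1 CPM at day 28. The genotypes overlapped at every day, and ATLD day 14 lay above the other ATLD days. It was called only between genotypes, by 0.403 ± 0.16, adjusted p = 0.0432, at day 0 and 0.52 ± 0.17, adjusted p = 0.0102, at day 14, and the fit without a batch term kept neither call. Adar (ENSMUSG00000027951, chromosome 3, 89715022 to 89753446, plus strand) edits adenosine in double-stranded RNA of the cell and so keeps it from the sensors. WT libraries held Adar at 56.3, 54.8 and 64.04 CPM at day 0, at 52.9, 66.1 and 63.1 CPM at day 14 and at 80.6, 63.4 and 72.4 CPM at day 28. ATLD libraries held Adar at 85.8, 62.03 and 66.1 CPM at day 0, at 89.3, 104 and 88.002 CPM at day 14 and at 83.5, 74.8 and 90.1 CPM at day 28. ATLD lay above WT at day 14 and overlapped it at the other days, and the difference was 0.51 ± 0.14, adjusted p = 0.00442, at day 14.

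Among virus restriction factors, Mx1 rose in WT and fell in ATLD, while Rsad2 and Cmpk2 fell in WT and were higher in ATLD. Mx1 (ENSMUSG00000000386, chromosome 16, 97447035 to 97462907, minus strand) is a dynamin-like GTPase that blocks influenza and related viruses, and many inbred mouse strains carry a defective copy. WT libraries held Mx1 at 3.69, 2.09 and 4.08 CPM at day 0, at 6.78, 6.74 and 9.07 CPM at day 14 and at 9.14, 8.54 and 6.65 CPM at day 28. ATLD libraries held Mx1 at 4.17, 2.12 and 2.62 CPM at day 0, at 1.77, 2.54 and 2.62 CPM at day 14 and at 1.23, 1.17 and 1.08 CPM at day 28. In WT both later days lay above day 0, and in ATLD day 28 lay below day 0 and day 14. The WT changes were 1.18 ± 0.25, adjusted p = 0.00168, and 1.29 ± 0.26, adjusted p = 0.000924, at day 14 and day 28, and the ATLD changes were -1.36 ± 0.28, adjusted p = 0.00142, at day 28 against day 0 and -0.99 ± 0.28 against day 14. Mx1 did not differ past the threshold between genotypes at day 0 (0.04) and was lower in ATLD later, with a difference of -1.33 ± 0.30, adjusted p = 0.000916, at day 14 and -2.63 ± 0.31, adjusted p = 6.66e-07, at day 28. In the resequenced run of WT day 14 replicate 1 it was at 4.21 CPM, still above the ATLD libraries of that day. Rsad2 (ENSMUSG00000020641, chromosome 12, 26442746 to 26456452, minus strand), also called viperin, makes a chain-terminating nucleotide. WT libraries held Rsad2 at 3.94, 2.56 and 4.85 CPM at day 0, at 1.12, 0.825 and 1.96 CPM at day 14 and at 2.297, 1.86 and 0.802 CPM at day 28. ATLD libraries held Rsad2 at 23.3, 9.27 and 13.7 CPM at day 0, at 13.7, 22.4 and 19.8 CPM at day 14 and at 6.12, 5.39 and 7.43 CPM at day 28. WT day 0 lay above the later WT days, ATLD day 28 lay below both other ATLD days, and every ATLD library was above every WT library. Its log2 change was -1.54 ± 0.41, adjusted p = 0.00759, and -1.21 ± 0.40, adjusted p = 0.0354, in WT at day 14 and day 28 and -1.29 ± 0.37, adjusted p = 0.0132, in ATLD at day 28, with -1.56 ± 0.37 from day 14. The ATLD minus WT difference was 3.99 ± 0.45 at day 14. Cmpk2, a nucleotide kinase whose gene lies beside Rsad2, was at 5.39 ± 1.16, 2.399 ± 0.4599 and 2.96 ± 1.16 CPM at the WT days and at 19.2 ± 5.35, 26.2 ± 3.05 and 15.9 ± 2.41 CPM at the ATLD days (mean ± SD, n = 3). It fell in WT, with a log2 change of -1.17 ± 0.27 at day 14 and -0.88 ± 0.27 at day 28, and it was higher in ATLD by 3.59 ± 0.32 at day 14 and 2.38 ± 0.30 at day 28.

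Bst2, Ifitm3 and Rtp4 were higher in ATLD at day 0, and Ifitm3 was not called between genotypes later. Bst2 (ENSMUSG00000046718, chromosome 8, 71534255 to 71537456, minus strand), or tetherin, holds budding virus on the cell surface. WT libraries held Bst2 at 13.1, 17.3 and 18.5 CPM at day 0, at 20.6, 40.005 and 26.7 CPM at day 14 and at 38.1, 20.5 and 26.8 CPM at day 28. ATLD libraries held Bst2 at 98.1, 94.1 and 73.8 CPM at day 0, at 103, 169 and 194 CPM at day 14 and at 146, 90.3 and 116 CPM at day 28. The later WT libraries lay above WT day 0, and every ATLD library was above every WT library. Bst2 rose in WT at day 14 (0.83 ± 0.28, adjusted p = 0.0322) and was higher in ATLD at day 0 (2.32 ± 0.31, adjusted p = 7.5e-06). Bst2 also marks plasmacytoid dendritic cells, whose defining marker Siglech was at 0 in all 9 ATLD libraries. Of the other markers listed for these cells, Ccr9 was at 0.0451 to 0.212 CPM and Tcf4 at 45.5 to 78.8 CPM in ATLD. In the original WT they were at 0.359 to 0.794 CPM and 117 to 140 CPM. The part of such cells in the Bst2 level was not tested. Ifitm3 (ENSMUSG00000025492, chromosome 7, 141009586 to 141010770, minus strand) stops virus fusion in endosomes. WT libraries held Ifitm3 at 189, 209 and 219 CPM at day 0, at 363, 471 and 383 CPM at day 14 and at 485, 357 and 442 CPM at day 28. ATLD libraries held Ifitm3 at 362, 368 and 456 CPM at day 0, at 451, 599.9 and 614 CPM at day 14 and at 699.9, 553 and 622 CPM at day 28. WT day 0 was the lowest group and did not overlap any other, whereas the genotypes overlapped at day 14. Ifitm3 rose in WT by 0.98 ± 0.15, adjusted p = 8.6e-05, and 1.06 ± 0.15, and in ATLD by 0.49 ± 0.15 and 0.66 ± 0.15, adjusted p = 0.00344, at day 28. The ATLD minus WT difference was called at day 0 (0.65 ± 0.17, adjusted p = 0.00331). Rtp4, a chaperone that also curbs flavivirus, rose in ATLD by 1.197 ± 0.20 at day 14 and 0.71 ± 0.20 at day 28 and was higher in ATLD at day 0 (2.53 ± 0.23) and day 28 (2.199 ± 0.23). Its mean was 17.4 ± 3.42 CPM at WT day 0 and 231 ± 26.01 CPM at ATLD day 14 (SD, n = 3), with 13.6% of its transcript windows shared with a predicted gene. Ddx60, a helicase of RNA sensing, fell in ATLD from day 14 to day 28 (-1.01 ± 0.27). Samd9l, an inhibitor of translation, fell in the same comparison (-0.78 ± 0.17), and Mx2 was higher in ATLD at day 0 (0.79 ± 0.32) and day 14 (0.97 ± 0.32).

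Parp9 and Dtx3l form an ADP-ribosylating ubiquitin ligase, and Parp12 and Parp14 are mono-ADP-ribosyl transferases. All 4 were higher in ATLD at day 0 (all genes: 26.1%), and all 4 were higher in WT at day 28 than at day 0 (all genes: 12.3%). All 4 fell in ATLD from day 14 to day 28 (all genes: 9.05%). The ATLD minus WT differences at day 0 were 1.22 for Parp9, 0.75 for Dtx3l, 0.82 for Parp12 and 0.45 for Parp14. For Parp14 the groups of day 0 overlapped, at 106, 67.6 and 67.1 CPM in ATLD and 67.6, 60.9 and 70.5 CPM in WT. The fit without a batch term did not keep that call of Parp14. By day 28 Parp14 was lower in ATLD than in WT (-0.62 ± 0.18, adjusted p = 0.00599).

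The interferon-inducible GTPases act on the vacuoles of intracellular microbes and respond to type II as well as type I interferon. Of 6, 5 were higher in ATLD than in WT at day 0, 6 at day 14 and 4 at day 28 (all genes: 26.1%, 30.1% and 29.3% higher). Gbp2 (ENSMUSG00000028270, chromosome 3, 142620602 to 142638008, plus strand) is a guanylate-binding protein. WT libraries held Gbp2 at 28.4, 23.96 and 26.4 CPM at day 0, at 22.4, 16.6 and 28.3 CPM at day 14 and at 25.2, 25.7 and 17.3 CPM at day 28. ATLD libraries held Gbp2 at 57.8, 55.8 and 56.6 CPM at day 0, at 64.9, 80.7 and 81.3 CPM at day 14 and at 42.1, 38.6 and 34.3 CPM at day 28. The WT days overlapped, and ATLD day 28 lay below both other ATLD days yet above every WT library. Its day 28 level in ATLD changed by -0.56 ± 0.17, adjusted p = 0.021, against day 0 and by -0.98 ± 0.17, adjusted p = 0.000891, against day 14. Igtp (ENSMUSG00000078853, chromosome 11, 58199556 to 58207591, plus strand) is the immunity-related GTPase Irgm3. WT libraries held Igtp at 8.94, 7.97 and 10.3 CPM at day 0, at 13.9, 11.6 and 19.4 CPM at day 14 and at 18.7, 15.96 and 12.7 CPM at day 28. ATLD libraries held Igtp at 24.4, 16.9 and 19.6 CPM at day 0, at 33.1, 43.9 and 40.3 CPM at day 14 and at 29.8, 25.3 and 28.6 CPM at day 28. WT day 0 lay below every other group, and ATLD day 14 lay above all others. It rose at day 14 by 0.72 ± 0.20, adjusted p = 0.00891, in WT and 0.95 ± 0.19, adjusted p = 0.00267, in ATLD, and 12.3% of its transcript windows are shared with Irgm2. Iigp1 (ENSMUSG00000054072, chromosome 18, 60376027 to 60392634, plus strand) disrupts the vacuole of Toxoplasma. WT libraries held Iigp1 at 7.004, 4.498 and 8.38 CPM at day 0, at 2.73, 2.05 and 6.84 CPM at day 14 and at 7.42, 7.503 and 3.33 CPM at day 28. ATLD libraries held Iigp1 at 16.2, 7.46 and 10.5 CPM at day 0, at 13.8, 20.8 and 28.03 CPM at day 14 and at 9.87, 6.94 and 7.08 CPM at day 28. WT days overlapped, with WT day 14 replicates 1 and 2 lowest, and ATLD day 28 lay below ATLD day 14. It fell in ATLD from day 14 to day 28 (-1.39 ± 0.42, adjusted p = 0.0291) and was higher in ATLD at day 14 (2.98 ± 0.53, adjusted p = 7.99e-05). Gbp3 rose in ATLD at day 14 (0.98 ± 0.24), Gbp7 was lower in ATLD at day 28 than at day 0 (-0.71 ± 0.21), and Irgm1 was higher in ATLD at both later days than at day 0 (0.71 ± 0.18 and 0.48 ± 0.18).

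Among the remaining genes, Ifi27 and Ifi27l2a rose in both genotypes, Epsti1 fell in WT and Cxcl10 fell in ATLD at day 28. Ifi27 (ENSMUSG00000064215, chromosome 12, 103434211 to 103440239, plus strand) encodes a small mitochondrial membrane protein. WT libraries held Ifi27 at 72.97, 69.6 and 81.8 CPM at day 0, at 102, 109 and 112 CPM at day 14 and at 131, 104 and 106 CPM at day 28. ATLD libraries held Ifi27 at 183, 232 and 204 CPM at day 0, at 283, 325 and 366 CPM at day 14 and at 410.2, 349 and 384 CPM at day 28. Every later library lay above day 0 of its genotype, and every ATLD library above every WT library. It rose by 0.601 ± 0.12, adjusted p = 0.00136, in WT and by 0.89 ± 0.12, adjusted p = 3.76e-05, in ATLD at day 28. Ifi27l2a (ENSMUSG00000079017, chromosome 12, 103442167 to 103443680, minus strand), a relative of Ifi27, had the largest rise of the 49 genes in each genotype. WT libraries held Ifi27l2a at 0.855, 0.911 and 1.59 CPM at day 0, at 5.18, 9.87 and 9.004 CPM at day 14 and at 15.3, 6.38 and 7.96 CPM at day 28. ATLD libraries held Ifi27l2a at 22.8, 26.7 and 13.8 CPM at day 0, at 63.3, 80.9 and 132 CPM at day 14 and at 62.97, 34.99 and 63.6 CPM at day 28. No WT library of day 0 reached 2 CPM, and the ATLD libraries of day 0 were above 8 of the 9 original WT libraries. The change was 2.82 ± 0.43, adjusted p = 6.85e-05, and 3.13 ± 0.44, adjusted p = 2.76e-05, in WT and 2.13 ± 0.38, adjusted p = 0.000868, and 1.35 ± 0.37 in ATLD at day 14 and day 28, and the ATLD minus WT difference at day 0 was 3.87 ± 0.47, adjusted p = 2.39e-06.

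Lgals3bp (ENSMUSG00000033880, chromosome 11, 118392751 to 118402092, minus strand) is a secreted glycoprotein that binds galectins. WT libraries held Lgals3bp at 44.6, 48.8 and 63.4 CPM at day 0, at 75.7, 131 and 96.7 CPM at day 14 and at 147, 81.4 and 112 CPM at day 28. ATLD libraries held Lgals3bp at 155, 96.9 and 108 CPM at day 0, at 203, 286 and 227 CPM at day 14 and at 192, 139 and 225 CPM at day 28. The later WT libraries lay above WT day 0, and the genotypes overlapped at day 28. It rose at day 14 by 0.95 ± 0.25, adjusted p = 0.00818, in WT and 0.99 ± 0.25, adjusted p = 0.0139, in ATLD. Cxcl10 (ENSMUSG00000034855, chromosome 5, 92346638 to 92348889, minus strand) is the chemokine that draws T cells through Cxcr3. WT libraries held Cxcl10 at 2.54, 1.88 and 4.38 CPM at day 0, at 1.74, 3.605 and 3.11 CPM at day 14 and at 6.84, 4.41 and 2.98 CPM at day 28. ATLD libraries held Cxcl10 at 9.05, 2.21 and 3.37 CPM at day 0, at 3.04, 4.48 and 6.84 CPM at day 14 and at 1.46, 1.29 and 0.964 CPM at day 28. All 3 ATLD libraries of day 28 lay below every other library, while WT days overlapped and ATLD day 0 replicate 1 was the highest of all. Cxcl10 fell in ATLD at day 28, with a log2 change of -1.97 ± 0.50, adjusted p = 0.00666, against day 0 and -1.94 ± 0.50, adjusted p = 0.0131, against day 14, and was lower in ATLD than in WT at day 28 (-2.28 ± 0.52, adjusted p = 0.000899). Epsti1, an epithelial-stromal interaction gene of breast carcinoma, fell the most of the 49 genes in WT, with log2 changes of -2.42 ± 0.21, adjusted p = 8.91e-08, and -2.18 ± 0.21 at day 14 and day 28. It was at 2.26 ± 0.162, 0.423 ± 0.0943 and 0.5004 ± 0.0912 CPM at the WT days and at 3.54 ± 0.285, 3.29 ± 0.404 and 1.84 ± 0.419 CPM at the ATLD days (mean ± SD, n = 3). Sp100, of the nuclear PML bodies, rose in WT at day 28 (1.14 ± 0.28) and fell in ATLD from day 14 to day 28 (-0.88 ± 0.27). Helz2, a helicase coactivator, was lower in ATLD at day 28 (-1.07 ± 0.30), with groups that overlap. Ifi35, Ifi44, Xaf1 and Trim30a rose in ATLD at day 14, by 0.49, 1.099, 1.03 and 1.06.

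**Figure D3:**
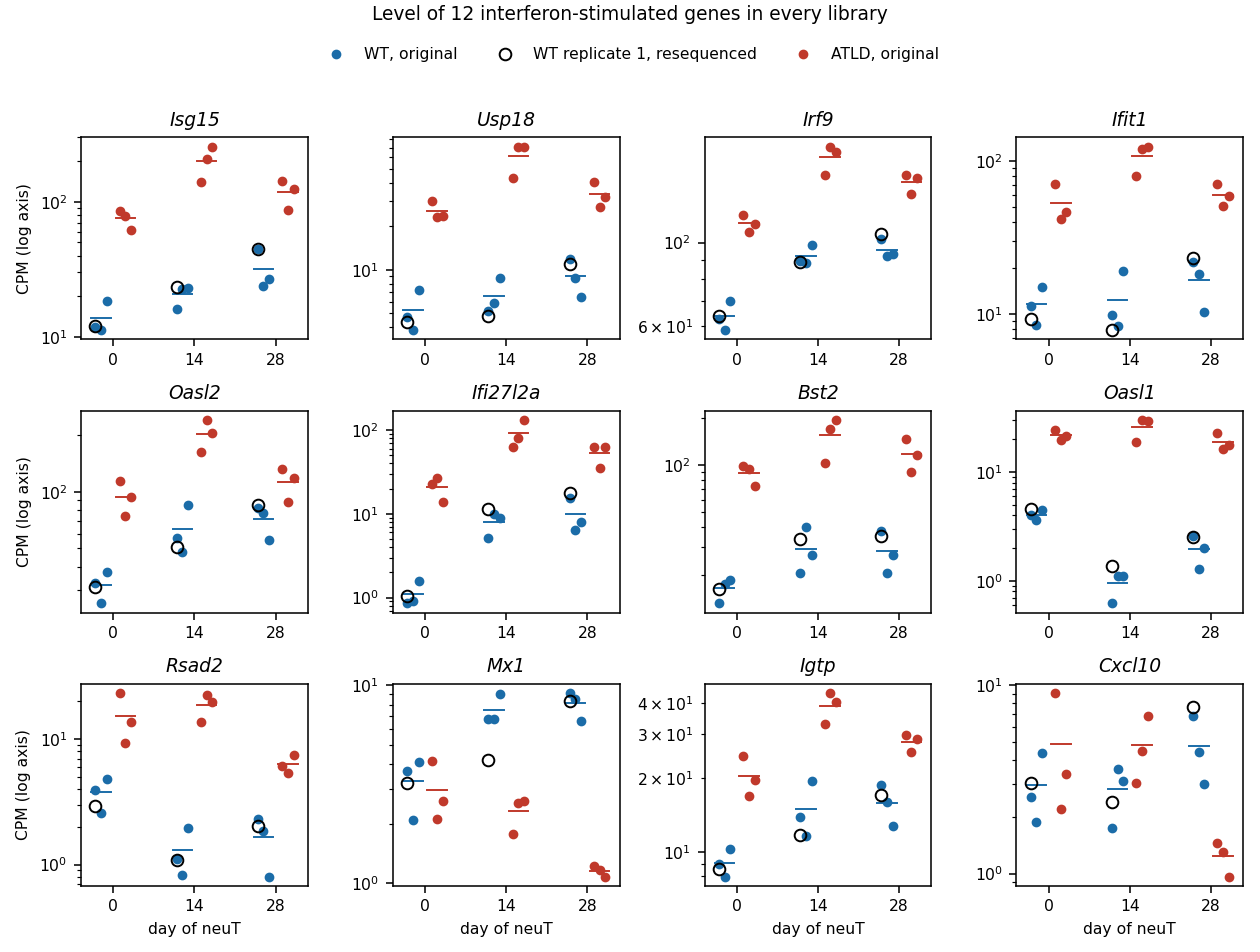
CPM (log axis) of 12 of the genes by day of neuT (x axis) in every library; filled points are original libraries (blue WT, red ATLD), open circles the resequenced runs of WT replicate 1, and short lines the mean of the 3 original libraries. Isg15, Usp18, Irf9, Ifit1, Bst2, Oasl1 and Rsad2 show every red point above every blue one, whereas Mx1 rises in WT and falls in ATLD.

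The change with time itself differed between genotypes for 11 genes at day 14 and 13 at day 28, by the edgeR test of the ATLD change minus the WT change. At day 14, 9 were higher and 2 lower (all genes: 10.8%, 10.6% and 21.3% in either direction), and the median difference was 0.13 beside -0.04. The 9 were Oasl1 (2.36 ± 0.35, adjusted p = 7.25e-05), Epsti1 (2.32 ± 0.27, adjusted p = 5.39e-06), Rsad2 (1.82 ± 0.54), Ifit3b (1.797 ± 0.58), Ifit2 (1.74 ± 0.35), Cmpk2 (1.62 ± 0.37), Trim30a (1.304 ± 0.37), Herc6 (1.03 ± 0.27) and Ifi35 (0.67 ± 0.21). Of these 9, Oasl1, Epsti1, Rsad2, Ifit3b, Ifit2 and Cmpk2 had fallen in WT. The 2 lower were Mx1 (-1.55 ± 0.37, adjusted p = 0.0049) and Dtx3l (-0.55 ± 0.18), both of which rose in WT. At day 28, 2 were higher and 11 lower (all genes: 13.5%, 14% and 27.5% in either direction), and the median was -0.397 beside -0.05. The 22.4% and 26.5% of the 49 genes called in either direction at day 14 and day 28 were close to the shares of all genes, so the number of calls does not set the list apart. Ifit2 (1.38 ± 0.35) and Epsti1 (1.23 ± 0.28) were again higher, in a contrast that uses the same day 0 libraries. The lower ones were led by Cxcl10 (-2.65 ± 0.69, adjusted p = 0.0075), Mx1 (-2.65 ± 0.38, adjusted p = 3.79e-05), Oas3 (-2.34 ± 0.55), Sp100 (-2.07 ± 0.39) and Ifi27l2a (-1.78 ± 0.56). Oas2 (-1.63 ± 0.41), Oas1a (-1.18 ± 0.31), Parp14 (-1.05 ± 0.25), Dtx3l (-1.01 ± 0.18), Xaf1 (-0.92 ± 0.27) and Parp9 (-0.71 ± 0.19) completed the set. The day 14 count was 7 without ATLD day 0 replicate 3. Without the 3 WT libraries with a GC trend, WT day 14 is left with replicate 2 alone, so whether the day 14 calls hold in that fit cannot be judged. With the resequenced runs in place of the originals, 9 of the 11 calls of day 14 and all 13 of day 28 were kept.

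**Figure D4:**
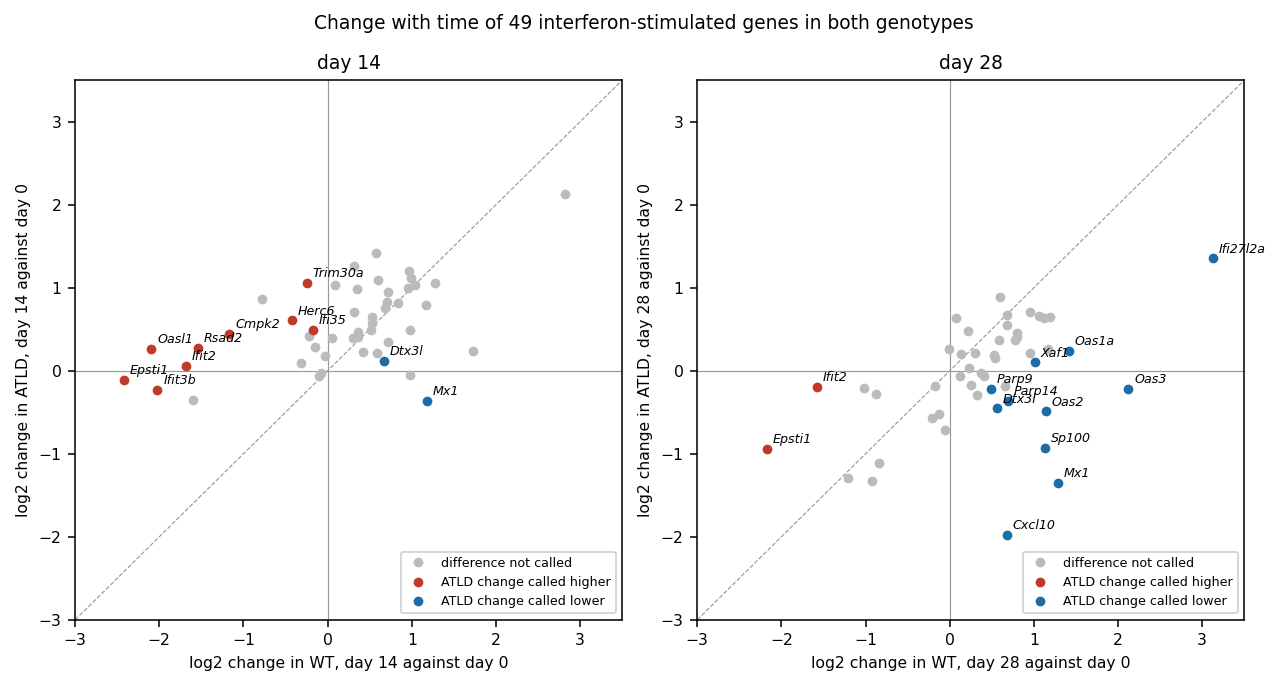
Log2 change from day 0 in WT (x axis) and in ATLD (y axis) for the 49 genes at day 14 (left) and day 28 (right); the dashed line is equal change, and red and blue mark genes whose ATLD change was called higher or lower than the WT change. At day 14 all 9 red genes lie left of 0 on the WT axis, and at day 28 all 11 blue genes lie right of 0.

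Called sets of the genotypes, which share no libraries within a time comparison, met in part. At day 14, 10 genes were higher in both, 50% of the 20 in WT and 52.6% of the 19 in ATLD: Irf9, Oas1a, Oasl2, Rtp4, Ifitm3, Igtp, Ifi27, Ifi27l2a, Xaf1 and Lgals3bp. At day 28, 6 were higher in both, 27.3% of the 22 in WT and 85.7% of the 7 in ATLD. Another 3, Mx1, Dtx3l and Sp100, were higher in WT and lower in ATLD, and Rsad2 and Epsti1 were lower in both. The overlap was not counted over all genes, so these shares do not set the list apart.

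The genes that start the pathway were also measured. Of 21 interferon genes (type I, II and III), 9 had no count in any library, and the others summed to 82 counts over all 21 libraries, 1 to 13 per library, with at most 7 for 1 gene in 1 library. Ifnb1, the interferon made by most cells, had 11 counts in 7 libraries. None of the 21 passed the filter, so no difference in ligand RNA was detectable at this depth. The 6 receptor chains passed it. In WT, 5 of 6 fell at day 14 and 3 of 6 had fallen at day 28 (all genes: 15.1% and 12.4% lower). The log2 change at day 14 was -0.89 ± 0.10 for Ifnar2 and -1.13 ± 0.09 for Il10rb, the shared chain of the type III receptor. At each day 4 of 6 (Ifnar2, Il10rb, Ifngr1 and Ifngr2) were higher in ATLD, beside 26.1%, 30.1% and 29.3% of all genes, Ifnar2 by 0.39, 1.45 and 1.72 at day 0, day 14 and day 28. Ifnlr1, the specific chain of the type III receptor, was lower in ATLD at day 0 (-0.97 ± 0.13) and day 14 (-0.54 ± 0.13) and was not called at day 28. Ifnar1 was not called in any WT comparison or between genotypes. Its log2 change in ATLD from day 14 to day 28 was -0.37 ± 0.10, adjusted p = 0.0156.

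Kinases, factors and inhibitors outside the list of 49 were measured too. Irf7, the factor that amplifies type I interferon, rose in ATLD at day 14 (1.1001 ± 0.27) and was higher in ATLD by 2.03, 3.24 and 2.13. Irf5 rose in WT (1.12 ± 0.22 and 1.07 ± 0.22) and fell in ATLD at day 28 (-0.63 ± 0.22), and that difference was called (-1.699 ± 0.31, adjusted p = 0.000447). Among 5 inhibitors, Socs1, which blocks Jak kinases, rose in WT at day 14 (1.26 ± 0.39) and day 28 (1.16 ± 0.39). Socs3 fell in ATLD at day 14 (-0.99 ± 0.18) and was lower in ATLD at each day (-0.84, -2.13 and -2.11). Of the 5 inhibitors, 1 was called higher and 1 lower in ATLD than in WT at day 0. The counts were 1 and 2 at day 14 and 2 and 2 at day 28. Of all genes, 26.1%, 30.1% and 29.3% were higher at these days and 29.5%, 35% and 34.9% lower.

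Both runs of the same 3 WT cultures show how far the levels of these genes differed between runs, and the cause was not tested. At day 28 the resequenced and original levels were within 0.25 log2 units for 46 of 49 genes, and at day 0 for 32. At day 14 only 14 were, and 17 differed by over 0.5. At day 14 the median log2 ratio was 0.24 for genes above the median GC content of the list and -0.39 for the others. In the resequenced runs alone, all 20 genes called higher and all 7 called lower in WT at day 14 moved the same way, as did the 22 and 5 of day 28, with 1 culture a day and no test. These runs are the same replicate 1 cultures, so this is a comparison of runs and not of further cultures.

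**Figure D5:**
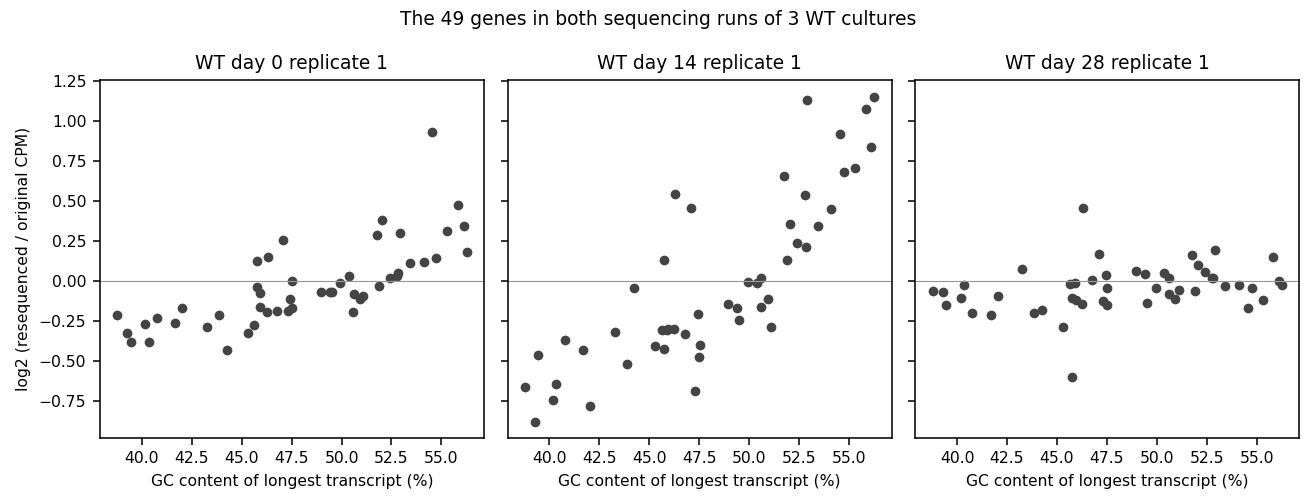
Log2 ratio of the resequenced to the original CPM (y axis) against the GC content of the longest transcript (x axis) for the 49 genes in the 3 WT cultures sequenced in both batches. The day 14 points climb with GC content, and 46 of 49 day 28 points lie within 0.25 of 0.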

How the data were processed

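RNA of 21 organoid libraries was made into stranded poly(A) libraries with a TruSeq kit, per the labels' protocols. The authors deposited raw counts per gene, with no normalization, and the submitters' processing notes name featureCounts, DESeq2 and mm10. Versions, aligner, strand setting and annotation were not given in the sources used here. Gene lengths, an other unit, stand in the same deposited table. No count column was left out.

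Time comparisons and genotype by time contrasts were fitted on the 18 original libraries, in 6 groups (18684 genes, 12 residual degrees of freedom), and ATLD against WT on all 21 with a batch term (18844 genes, 14 degrees of freedom), where the resequenced runs repeat cultures already in the fit. The tool was edgeR 4.0.16 in R 4.3.3 (filterByExpr with a minimum count of 10 and a minimum total of 15, TMM, two-sided quasi-likelihood F test), and calls were made at a Benjamini-Hochberg adjusted p under 0.05 over all genes tested. Log2 fold changes use a prior count of 0.125, and their SE is the absolute change divided by the square root of F. CPM carries the TMM scaling over 21 libraries.

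The genes, role groups and pathway and marker lists were chosen with earlier results of these data known. Values in every library are given for 21 genes of the list, and each comparison names up to 5 called genes with the largest rise and fall at a mean log2 CPM of at least 0, plus all called in genotype by time. Scripts were tested on simulated data. Alternatives were DESeq2 1.42.0, limma 3.58.1 voom with the culture as block, size factors by median of ratios, no filter on low counts, the compared groups alone, each library left out, a replicate block, resequenced runs in place of originals, an offset for GC content, leaving out 3 WT libraries with a GC trend, no batch term and the second batch alone. Promoter letters come from RefSeq on GRCm38.p6. Protein identity between family members was not run, and shared transcript windows of 50 bases were counted in its place. Some results on pathway genes outside the list of 49 are not reported here.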

Additional observations from a re-analysis of the deposited data

Results flagged for a closer look

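The change with time differed between the genotypes for 24 gene and day pairs, by the edgeR test of the difference itself (ATLD change minus WT change, log2). These were 22.4% of the 49 genes at day 14 and 26.5% at day 28, close to the 21.3% and 27.5% of all genes tested. Both days use the same day 0 libraries, and Ifit2, Epsti1, Mx1 and Dtx3l were called at both. At day 14 the difference was 2.36 for Oasl1, 2.32 for Epsti1, 1.82 for Rsad2, 1.797 for Ifit3b, 1.74 for Ifit2 and 1.62 for Cmpk2, which fell in WT and were not called in ATLD. It was 1.304 for Trim30a, 1.03 for Herc6 and 0.67 for Ifi35, which rose in ATLD and were not called in WT. It was -1.55 for Mx1 and -0.55 for Dtx3l, which rose in WT and were not called in ATLD. Dtx3l and Ifi35 lost this call with the resequenced runs in place of the originals.

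At day 28 the difference was 1.38 for Ifit2 and 1.23 for Epsti1. Mx1 (-2.65), Sp100 (-2.07) and Dtx3l (-1.01) rose in WT and fell in ATLD. Cxcl10 (-2.65) fell in ATLD and was not called in WT. Ifi27l2a (-1.78) rose in both genotypes, with the smaller rise in ATLD. Oas3 (-2.34), Oas2 (-1.63), Oas1a (-1.18), Parp14 (-1.05), Xaf1 (-0.92) and Parp9 (-0.71) rose in WT and were not called in ATLD.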

How the results depend on the processing

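Among 246 called changes of the 49 genes over the 11 comparisons, 169 kept their direction and call in every alternative, and 1 turned: Samd9l in WT at day 14 against day 0 went to -0.044 without the 3 WT libraries with a GC trend, and the cause was not tested. Other scaling, by median-of-ratios size factors, turned 0 directions. Counts of called genes moved by over 1.5 times in these cases, and their causes were not tested: WT day 28 against day 14 went from 0 to 1 without a filter and to 1 by DESeq2, and genotype by time at day 14 from 11 to 20 without the GC trend libraries. The fit without the GC trend libraries leaves WT day 14 with replicate 2 alone, which has no spread of its own. Its day 14 count can therefore not be judged and is not read as an effect of the processing. Leaving out each library in turn gave 23 to 32 genes for WT day 14 against day 0, 22 to 28 for day 28 against day 0 and 0 to 3 for day 28 against day 14. In ATLD it gave 11 to 24, 11 to 16 and 11 to 24 in the same order. For ATLD against WT it gave 29 to 39 at day 0, 34 to 41 at day 14 and 28 to 36 at day 28, and for genotype by time 7 to 14 at day 14 and 11 to 17 at day 28. Depth limited the interferon genes, which had 82 counts in all libraries. With limma voom the ATLD against WT counts were 34, 40 and 33.

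Replicate numbers did not pair the samples: over 45 pairs of same-numbered libraries the correlation of deviations was -0.71 to 0.32, and 12 were over 0.1. A replicate block gave 12 called genes for ATLD day 28 against day 14 in place of 22. In the other comparisons the block moved the count of calls by less than 1.5 times.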
